A study of Mus musculus with 6 samples.

Results

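The interferon response genes described here are a list of 35 mouse genes chosen by symbol, of which 33 had a row among the 18939 genes of the deposited expression table. All 33 passed the filter on low values and were tested; Mx1 and Mx2 had no row under these symbols and are not analysed here. The libraries were made from messenger RNA of mouse skin in the MC903-OVA model named in the series title; MC903 (calcipotriol) is a vitamin D analogue that inflames skin and OVA is the antigen ovalbumin. The 3 CKO libraries (replicates 1, 2 and 5) came from mice labelled as lacking VAMP7, a vesicle fusion protein, in basophils. The 3 FLOX libraries (replicates 2, 3 and 5) carry the genotype label wildtype. The Cre driver, the strain and the age are not in the labels. Nor do they say whether each library is 1 animal, and if not, the spread that the p-values rest on may be technical. The tissue is whole skin, so fewer cells of a type and less RNA per cell cannot be told apart.

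Interferons are cytokines released when cells sense foreign nucleic acid or, for interferon gamma, when T cells and natural killer cells are activated. Type I and type III interferons act through Janus kinases on a transcription factor complex that holds STAT2 and IRF9 and binds the interferon-stimulated response element in promoters, while interferon gamma acts mainly on the gamma-activated sequence. The induced genes encode sensors and effectors against viruses and bacteria, and keratinocytes, fibroblasts and leukocytes of the skin can all express them.

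Many promoters of these genes hold letters that match the interferon-stimulated response element. In RefSeq promoter windows of assembly GRCm38.p6, from 250 bases before to 50 bases after a gene's start, 28 of the 35 genes were matched by symbol; Usp18, Oas2, Mx1, Mx2, Zbp1, Rtp4 and Parp14 were not. The core of the response element (GAAA, any 2 bases, GAAA) was searched on both strands and stood in 16 of the 28 genes (57.1%), against 3.99% of 27025 genes with a window. The gamma-activated core TTCNNNGAA, which reads the same on both strands, stood in 9 of the 28 (32.1%), against 9.55% of all. The 160 bases before the start are printed for the 6 genes described below with the most matches to the response element core, and for Trim30a, added after its values were seen because it was the member that passed the group test. Capitals mark that core on either strand.
Isg15 promoter, chr4:156200819-156200978, minus strand: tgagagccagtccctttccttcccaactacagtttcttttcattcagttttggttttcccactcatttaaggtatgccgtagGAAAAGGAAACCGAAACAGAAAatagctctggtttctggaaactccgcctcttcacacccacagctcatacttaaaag
Ifit1 promoter, chr19:34640729-34640888, plus strand: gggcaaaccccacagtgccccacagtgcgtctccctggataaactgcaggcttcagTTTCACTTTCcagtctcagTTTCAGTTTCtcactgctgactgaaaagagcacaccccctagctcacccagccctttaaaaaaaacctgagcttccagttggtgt
Ifit3 promoter, chr19:34583369-34583528, plus strand: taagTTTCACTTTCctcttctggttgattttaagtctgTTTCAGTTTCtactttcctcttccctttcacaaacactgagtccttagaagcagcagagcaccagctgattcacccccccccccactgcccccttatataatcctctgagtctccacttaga
Oas1a promoter, chr5:120907526-120907685, minus strand: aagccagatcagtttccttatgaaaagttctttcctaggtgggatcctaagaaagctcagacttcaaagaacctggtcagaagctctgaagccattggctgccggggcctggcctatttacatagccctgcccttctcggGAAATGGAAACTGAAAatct
Bst2 promoter, chr8:71537473-71537632, minus strand: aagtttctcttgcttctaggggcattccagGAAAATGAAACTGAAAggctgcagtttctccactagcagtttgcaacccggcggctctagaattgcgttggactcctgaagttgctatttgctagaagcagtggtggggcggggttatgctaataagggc
Gbp3 promoter, chr3:142559884-142560043, plus strand: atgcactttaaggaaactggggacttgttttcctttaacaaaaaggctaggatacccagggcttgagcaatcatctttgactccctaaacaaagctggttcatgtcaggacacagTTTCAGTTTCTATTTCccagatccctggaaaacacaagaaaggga
Trim30a promoter, chr7:104465194-104465353, minus strand: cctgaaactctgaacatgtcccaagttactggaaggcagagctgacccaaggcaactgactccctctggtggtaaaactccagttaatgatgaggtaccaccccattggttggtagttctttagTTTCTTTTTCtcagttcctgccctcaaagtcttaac
Isg15 held 3 matches that overlap, and those of Oas1a, Bst2 and Gbp3 also ran into each other, while the matches of Ifit1 and Ifit3 stood apart. Trim30a has windows at 2 annotated starts with 1 match in each, and the match printed here begins 36 bases before its start. Within their windows Ifit2, Irf1, Irf7, Irf9, Oasl1, Oasl2, Herc6, Cmpk2, Ifi35, Ifi44, Isg20 and Xaf1 held no match to the response element core. A match describes these letters and is not a measured binding site.

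The members were compared between CKO and FLOX skin to ask whether loss of VAMP7 from basophils goes with another interferon response in the skin. Values are FPKM, a level corrected for transcript length and for the depth of the library. Group differences are on the log2(FPKM + 1) scale, CKO minus FLOX, with a standard error (SE). P-values are from limma, adjusted by the Benjamini-Hochberg method across the 12994 genes tested. Trim30a fell, no member rose, and 32 members did not pass. Across all tested genes 0.6% were called lower and 0.354% higher at the same threshold of 0.05, so 1 call among 33 genes stands close to the background. The median difference over the 33 members was -0.18, and over all tested genes 0.03. At an unadjusted p under 0.05, 5 members were lower and 1 was higher, where 8.94% and 12.6% of all tested genes were. That split, 1162 lower and 1641 higher genes, was 1498 and 1309 with median-ratio scaling. The groups did not overlap for 3 members that were lower (Oas3, Irf7 and Trim30a) and 1 that was higher (Bst2), against 11.4% and 15.5% of all tested genes.

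**Figure D1:**
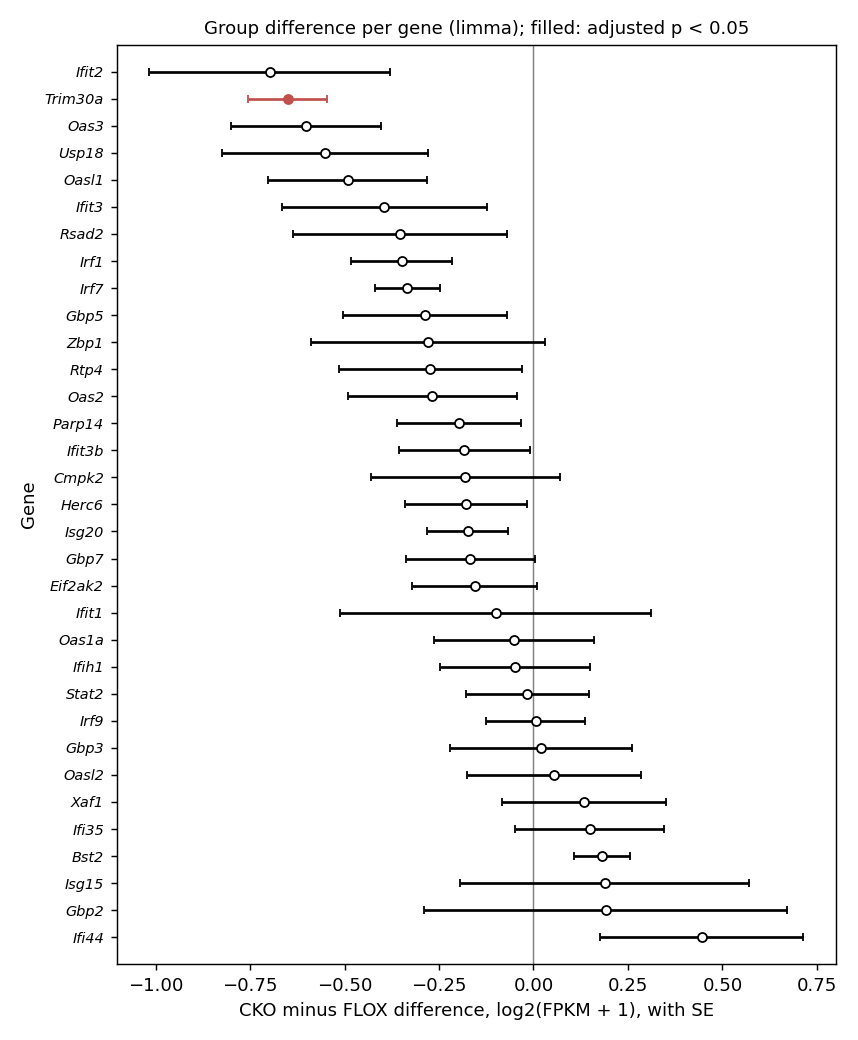
CKO minus FLOX difference of each of the 33 interferon response genes on the log2(FPKM + 1) scale (horizontal axis), with its SE as a bar; the filled red point passed limma at an adjusted p under 0.05. Trim30a (-0.65) passed, Ifit2 (-0.70) lay lower with a wider SE, and the other points spread up to 0.44 for Ifi44.

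A CKO library stood apart for these genes before any group comparison. In CKO replicate 1, 32 of the 33 members lay below their own mean over 6 libraries, and the median deviation was -0.49 on the log2(FPKM + 1) scale. The median deviation was 0.04 in CKO replicate 2 and 0.25 in CKO replicate 5, and it lay between 0.03 and 0.15 in the FLOX libraries. CKO replicate 1 was the lowest of all 6 libraries for 29 members, against 12.3% of all tested genes, and lay below every FLOX library for 30 members, against 25.2%. It was the lowest CKO library for 31 members, against 29.5% of all tested genes, and CKO replicate 5 was the highest CKO library for 30, against 31.1%. Members respond to the same signals, so these counts are not independent observations.

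**Figure D2:**
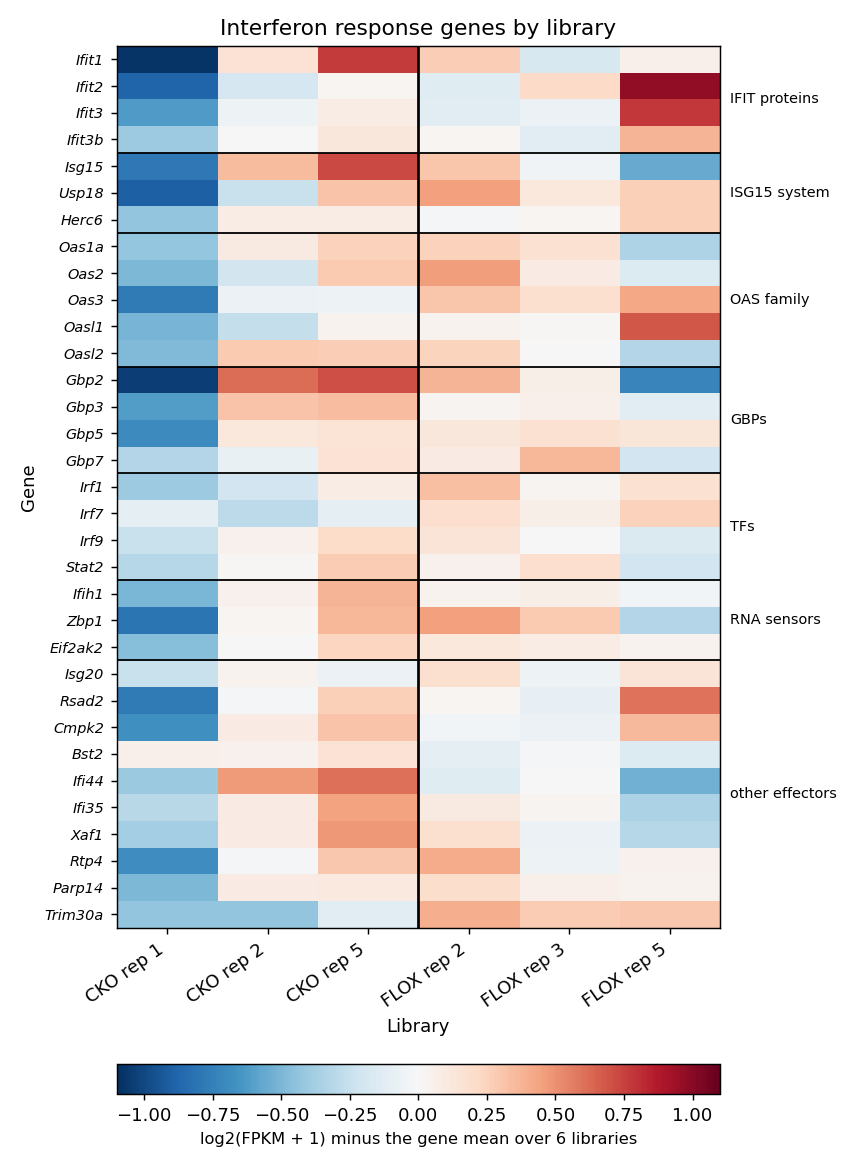
Each row is an interferon response gene and each column a library; the colour gives log2(FPKM + 1) minus the mean of that gene over 6 libraries, red above and blue below, and role groups are separated by lines. The column of CKO replicate 1 is below the mean for 32 of 33 genes, and FLOX replicate 5 is above the mean for Ifit2 and Ifit3 and below it for Gbp2 and Isg15.

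Spread between libraries was wide for these genes. The median within-group SD of log2(FPKM + 1) was 0.39 in CKO and 0.23 in FLOX libraries for the 33 members, against 0.13 and 0.11 for all tested genes. For the 9766 tested genes in the members' range of mean level, 3.09 to 79.985 FPKM, the medians were 0.12 and 0.11. The CKO SD was the larger for 28 of 33 members (84.8%) and for 56.5% of all tested genes. The highest CKO value was a median 1.75 times the lowest, and in FLOX 1.38 times.

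Leaving out CKO replicate 1 moved the median difference of the members from -0.18 to 0.003, with 15 members negative and 18 positive in place of 24 and 9. No member passed limma in that fit, in which 0.505% of genes were called lower and 0.536% higher. At an unadjusted p under 0.05 there were 3 lower and 4 higher, against 8.84% and 11.0% of the 12871 genes tested in it. Leaving out any other library kept the median negative, between -0.30 and -0.14. CKO replicate 1 was the lowest CKO library for 31 members, so leaving it out had to raise their differences. Such shifts, here and for single genes below, are a description and not a test.

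**Figure D3:**
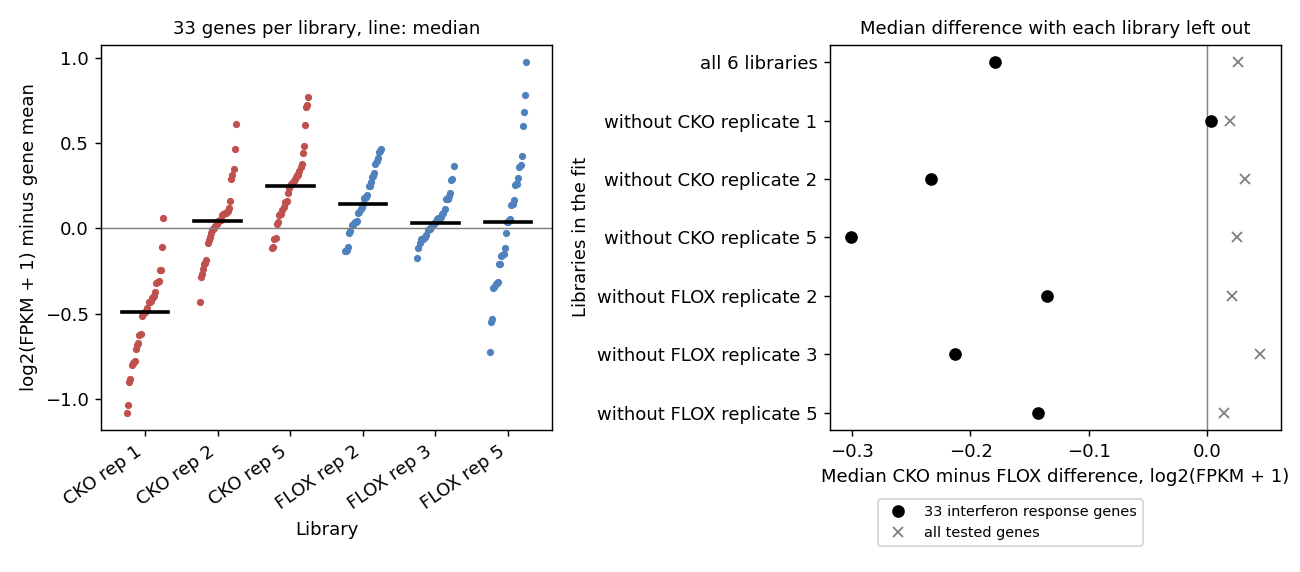
Left, the deviation of each of the 33 genes from its own mean on the log2(FPKM + 1) scale in each library, with the median as a line; right, the median CKO minus FLOX difference of the 33 genes (dots) and of all tested genes (crosses) with all libraries and with each left out. The median in CKO replicate 1 is -0.49, and without that library the median difference is 0.003.

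Among the transcription factors that carry the response, Irf7, which amplifies type I interferon production, was among the most abundant members. Irf7 (NCBI Gene ID 54123) measured 60.29, 53.27 and 60.25 FPKM in CKO replicates 1, 2 and 5 and 74.19, 68.01 and 77.64 FPKM in FLOX replicates 2, 3 and 5. All CKO values were below all FLOX values, and CKO replicate 1 was not the lowest. The difference was -0.33 (SE 0.09) and did not pass (limma adjusted p = 0.0825). Without CKO replicate 1 it was -0.36.

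Irf1, an early factor strongly induced by interferon gamma, measured 30.07, 34.42 and 42.15 FPKM in the CKO libraries and 50.27, 40.78 and 44.79 FPKM in the FLOX libraries. The groups overlapped only through CKO replicate 5, which lay just above FLOX replicate 3. The difference was -0.35 (SE 0.13, limma adjusted p = 0.188). Irf9 and Stat2, components of the type I complex, averaged 34.7 ± 5.47 against 34.4 ± 3.75 FPKM and 16.6 ± 3.54 against 16.7 ± 2.39 FPKM (mean ± SD, n = 3, CKO first). Their differences of 0.0060 and -0.016 were smaller than their SEs of 0.13 and 0.16, and that of Irf9 was -0.035 with median-ratio scaling and -0.020 with array weights.

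The IFIT genes encode proteins that bind foreign RNA and block its translation. All 4 had negative differences, from -0.70 to -0.10, and none passed. Ifit1, which recognises RNA lacking cap methylation, measured 9.64, 24.13 and 37.3 FPKM in CKO and 26.16, 18.9 and 22.33 FPKM in FLOX libraries. CKO replicates 1 and 5 lay below and above every FLOX library, a 3.87-fold range within the group, and the difference turned from -0.10 to 0.41 without CKO replicate 1. Ifit2 measured 6.72, 11.54 and 13.49 FPKM in CKO and 11.99, 15.45 and 27.01 FPKM in FLOX libraries, a difference of -0.70 (SE 0.32, limma adjusted p = 0.259). Here FLOX replicate 5 was the highest library, and without it the difference was -0.38, against -0.43 without CKO replicate 1.

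Ifit3, a partner of Ifit1, measured 18.43, 27.86 and 30.71 FPKM in CKO and 26.42, 27.7 and 50.35 FPKM in FLOX libraries (-0.39, SE 0.27). The pattern was that of Ifit2, with CKO replicate 1 lowest and FLOX replicate 5 highest. The Ifit3 difference was -0.18 without the former and -0.10 without the latter. Its close copy Ifit3b averaged 6.10 ± 1.29 and 7.05 ± 1.44 FPKM. Reads of the labelled length of 50 bases cannot separate these genes over much of their length. Of the distinct 50-base stretches in annotated Ifit3 transcripts (GENCODE M21), 51.2% also occurred in another gene, all of them in Ifit3b, so both values are uncertain.

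ISG15 is a ubiquitin-like protein that is attached to other proteins during the response. Isg15 (NCBI Gene ID 100038882), whose promoter held the 3 overlapping matches, measured 42.97, 95.71 and 124.43 FPKM in CKO and 93.12, 72.81 and 50.87 FPKM in FLOX libraries. CKO replicate 1 was the lowest and CKO replicate 5 the highest of all 6, so the CKO range enclosed the FLOX range. The difference was 0.19 (SE 0.38), 0.63 without CKO replicate 1 and -0.13 without CKO replicate 5. Usp18, which removes ISG15 and dampens the type I receptor, measured 6.42, 10.72 and 16.2 FPKM in CKO and 17.93, 13.99 and 15.61 FPKM in FLOX libraries (-0.55, SE 0.27, limma adjusted p = 0.295). CKO replicates 1 and 2 lay below all FLOX libraries and CKO replicate 5 among them. Leaving out CKO replicate 1 gave -0.24 for Usp18, and leaving out CKO replicate 5 gave -0.85. Herc6, the ISG15 ligase of mice, measured 2, 3.28 and 3.29 FPKM in CKO and 3.01, 3.11 and 3.85 FPKM in FLOX libraries, a difference of -0.18 (SE 0.16) that was -0.01 without CKO replicate 1.

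OAS proteins make the 2-5A messenger that activates the ribonuclease RNase L when they bind double-stranded RNA, and Oasl1 and Oasl2 encode related OAS-like proteins. Oas3 measured 2.28, 4.38 and 4.43 FPKM in CKO and 5.95, 5.36 and 6.58 FPKM in FLOX libraries. The groups did not overlap, and the difference was -0.60 (SE 0.20, limma adjusted p = 0.137) and -0.36 without CKO replicate 1. Oasl1, which limits Irf7 translation in mice, measured 3.11, 3.87 and 5.02 FPKM in CKO and 5.02, 4.92 and 8.39 FPKM in FLOX libraries (-0.49, SE 0.21, limma adjusted p = 0.232). The excess in FLOX was largest in FLOX replicate 5, and the difference was -0.27 without it.

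The more abundant OAS genes did not separate the groups. Oas1a measured 26.49, 38.55 and 42.89 FPKM in CKO and 42.91, 40.55 and 28.1 FPKM in FLOX libraries (-0.05, SE 0.21), and 57.6% of its 50-base stretches also occurred in Oas1g, so its value is uncertain. Oasl2 measured 16.23, 28.4 and 28.08 FPKM in CKO and 27.52, 23.01 and 18.21 FPKM in FLOX libraries (0.05, SE 0.23). In both genes CKO replicate 1 was the lowest library and FLOX replicate 5 the next. Oas2 averaged 6.31 ± 2.05 and 7.72 ± 1.90 FPKM.

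Guanylate-binding proteins coat pathogen vacuoles and are induced most strongly by interferon gamma. Gbp2 (NCBI Gene ID 14469) measured 17.98, 58.47 and 62.7 FPKM in CKO and 49.47, 39.67 and 22.52 FPKM in FLOX libraries. CKO replicates 2 and 5 exceeded every FLOX library while CKO replicate 1 was below them all, a 3.49-fold range. The difference of 0.19 had an SE of 0.48, and it was 0.76 without CKO replicate 1 and -0.12 without FLOX replicate 5. Gbp3 measured 10.58, 21.04 and 21.44 FPKM in CKO and 17.17, 17.44 and 15.39 FPKM in FLOX libraries (0.02, SE 0.24). It showed the same arrangement, with FLOX values inside the CKO range. The sign for Gbp3 was negative under median-ratio scaling (-0.019) and with array weights (-0.040).

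Gbp5, which also promotes inflammasome activation, was nearly constant in the FLOX libraries at 8.85, 9.18 and 8.94 FPKM and measured 4.55, 8.82 and 9.06 FPKM in CKO. Its difference of -0.29 (SE 0.22) came to -0.01 without CKO replicate 1. Gbp7 measured 11.3, 13.49 and 16.12 FPKM in CKO and 15.37, 18.84 and 12.3 FPKM in FLOX libraries (-0.17, SE 0.17). Its difference was -0.048 without CKO replicate 1, -0.025 without FLOX replicate 3 and -0.31 without FLOX replicate 5.

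For all 3 nucleic acid sensors CKO replicate 1 was the lowest library. Zbp1, which triggers necroptosis on binding Z-form nucleic acid, measured 21.91, 39.56 and 50.28 FPKM in CKO and 53.51, 47.7 and 31.02 FPKM in FLOX libraries (-0.28, SE 0.31). Eif2ak2, the kinase PKR that shuts down translation, measured 11.17, 15.75 and 18.81 FPKM in CKO and 17.16, 16.8 and 16.26 FPKM in FLOX libraries (-0.16, SE 0.17). FLOX libraries were close together for Eif2ak2 and the CKO values lay on either side. Ifih1, the RNA sensor MDA5, averaged 10.2 ± 3.26 and 10.3 ± 0.355 FPKM. Without CKO replicate 1 the differences of all 3 sensors were positive, from 0.039 to 0.19.

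Trim30a (NCBI Gene ID 20128) is an interferon-inducible TRIM protein that restrains Toll-like receptor signalling to NF-kB in mouse macrophages. It measured 11.21, 11.23 and 14.23 FPKM in CKO and 20.7, 19.04 and 19.22 FPKM in FLOX libraries. Every CKO library was below every FLOX library, by 37.8% between the means. The difference was -0.65 (SE 0.11, limma adjusted p = 0.047), and 120 genes shared that adjusted p, the smallest in the table. It kept its sign with each library left out, from -0.76 to -0.60, but passed only without CKO replicate 5 among those fits (limma adjusted p from 0.0278 to 0.162). With no filter, quantile normalization, no trend, robust fitting or the replicate block it did not pass either. A share of 5.98% of its 50-base stretches also occurred in the neighbouring family member Trim30d. Neutrophil, monocyte and macrophage, and basophil markers were lower beside Trim30a, while other leukocyte lists were not. T and natural killer cell markers had 7 positive and 5 negative differences. All 5 plasmacytoid dendritic cell markers tested had positive differences, but most were smaller than their SEs. These were Siglech (0.049, SE 0.15), Ccr9 (0.0067, SE 0.18), Ly6d (0.055, SE 0.15) and Spib (0.15, SE 0.18). Only Cox6a2 differed by more (1.26, SE 0.33, limma adjusted p = 0.0833). Its highest library was CKO replicate 2 and its lowest FLOX replicate 5, as for the summed skeletal muscle markers. Across all tested genes 0.6% were called lower. All 7 neutrophil markers had negative differences and 5 fell, with summed levels of 2574 to 3416 FPKM in CKO and 4452 to 6153 FPKM in FLOX libraries. S100a8 and S100a9 made up most of these sums. Of 10 monocyte and macrophage markers all had negative differences and 1 fell (Cd14), with sums of 1456 to 1760 and 2020 to 2120 FPKM. All 6 basophil markers were negative and 2 fell, with sums of 57.0 to 74.6 and 137 to 178 FPKM. Mcpt8 made up most of the FLOX basophil sums. The part of these cell types in the Trim30a result was not tested.

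**Figure D4:**
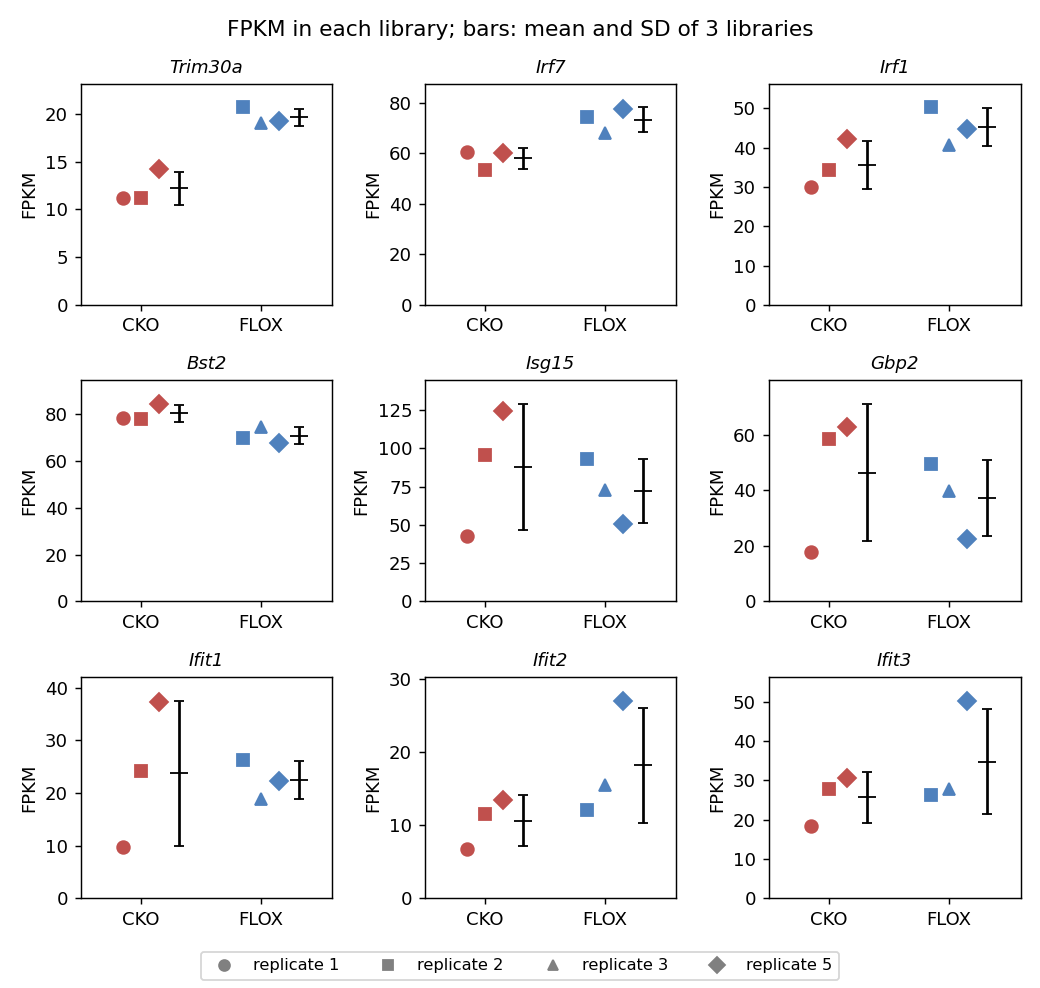
FPKM of 9 interferon response genes in each library (red CKO, blue FLOX, symbols by replicate number), with the mean and SD of 3 libraries beside each group; vertical axes start at 0. Trim30a, Irf7 and Bst2 do not overlap between the groups, while for Isg15, Gbp2 and Ifit1 the CKO libraries lie on both sides of the FLOX libraries.

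Among the other effectors, Bst2 was higher in every CKO library. Bst2 (tetherin), which holds budding virus at the cell surface, measured 78.65, 78.16 and 84.48 FPKM in CKO and 69.94, 74.83 and 67.68 FPKM in FLOX libraries. All CKO values were above all FLOX values, with CKO replicate 1 unremarkable, and the difference was 0.18 (SE 0.08, limma adjusted p = 0.216). Rtp4, which dampens interferon responses in mice, measured 31.61, 50.45 and 63.45 FPKM in CKO and 68.58, 49.51 and 53.23 FPKM in FLOX libraries, a difference of -0.27 (SE 0.24) that was 0.00090 without CKO replicate 1. The remaining effectors did not pass. Rsad2 (viperin) averaged 7.31 ± 2.81 and 9.40 ± 2.80 FPKM, and its chromosomal neighbour Cmpk2, a mitochondrial nucleotide kinase, 3.99 ± 1.62 and 4.48 ± 0.920 FPKM. Ifi44 had the largest positive difference of all members (0.44, SE 0.27), with 2.56, 5.52 and 6.18 FPKM in CKO and 3.3, 3.7 and 2.27 FPKM in FLOX libraries. Leaving out CKO replicate 1 gave 0.76 for Ifi44, and leaving out CKO replicate 5 gave 0.25. Differences of Isg20, a ribonuclease, Ifi35, Xaf1, a pro-apoptotic factor, and Parp14, an ADP-ribosyltransferase, ran from -0.20 to 0.15.

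FLOX replicate 5 was the lowest FLOX library for 17 members, among them Isg15, Oas1a, Oasl2, Gbp2, Zbp1, Ifi44 and Xaf1, against 38.5% of all tested genes. It was the highest FLOX library for 9 members, against 28.6% of all tested genes, a share near the background. Deviations from the gene means in that library ran from -0.73 for Gbp2 to 0.97 for Ifit2.

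The interferon genes themselves were barely detected. Of 21 ligand genes listed, 9 had a row and none reached the filter for testing, and their summed level was 0.4 to 1.58 FPKM in CKO and 0.5 to 1.99 FPKM in FLOX libraries. Ifng, the product of activated T cells and natural killer cells, measured 0.08, 0.63 and 0.87 FPKM in CKO and 1.36, 0.7 and 0.5 FPKM in FLOX libraries. Its lowest value was also in CKO replicate 1, and its lowest FLOX value in replicate 5. Ifnb1 was listed at 0.07 FPKM in FLOX replicates 2 and 3 and at 0 in the other libraries. Ifnk, the keratinocyte type I interferon, did not exceed 0.19 FPKM, and Ifnz, a murine type I relative, did not exceed 0.48 FPKM.

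Of 6 receptor genes, 1 fell and 5 did not pass, and the median difference was -0.20. For 4 of them (Il10rb, Ifnar1, Ifnar2 and Ifngr2) every CKO library was below every FLOX library, against 11.4% of all tested genes, and 3 were lower at an unadjusted p under 0.05. Il10rb, the chain shared by the receptors of interferon lambda, interleukin 10 and interleukin 22, fell from 55.8 ± 1.84 FPKM in FLOX to 41.7 ± 0.933 FPKM in CKO skin (n = 3 each; -0.41, SE 0.07, limma adjusted p = 0.047), and it did not pass with any library left out. Ifnar1 and Ifnar2, the type I receptor chains, averaged 16.8 ± 0.610 against 20.2 ± 0.171 FPKM and 38.4 ± 4.21 against 44.3 ± 0.741 FPKM. Ifngr1 and Ifngr2, the interferon gamma receptor chains, averaged 97.8 ± 11.8 against 101 ± 9.28 FPKM and 59.4 ± 3.23 against 68.5 ± 3.72 FPKM. CKO replicate 1 was the lowest CKO library for 2 of the 6 receptor genes.

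Of 10 genes of the Janus kinase, STAT and feedback list none passed, 9 had negative differences, and the median was -0.28 with and without CKO replicate 1. For 6 of them every CKO library was below every FLOX library, against 11.4% of all tested genes. At an unadjusted p under 0.05, 5 were lower, against 8.94%. The most negative difference was that of Socs1 (-1.35, SE 0.37, limma adjusted p = 0.0895). Socs3, a feedback inhibitor, averaged 103 ± 27.7 and 200.3 ± 61.4 FPKM (limma adjusted p = 0.0851), and Stat3 87.8 ± 6.46 and 97.5 ± 9.40 FPKM. Of 18 genes of nucleic acid sensing none passed, 13 were negative and the median was -0.12. Myd88, the Toll-like receptor adaptor, averaged 56.5 ± 6.49 and 80.4 ± 10.3 FPKM (limma adjusted p = 0.073), and Samhd1, a nucleotide hydrolase that restricts retroviruses, 92.8 ± 18.5 and 97.0 ± 9.02 FPKM.

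Further interferon-induced genes were often lowest in CKO replicate 1 among the CKO libraries. It was the lowest CKO library for 33 of 41 other type I response genes, against 29.5% of all tested genes. The same held for 26 of 28 tested interferon gamma response genes. CKO replicate 1 was the lowest of all 6 libraries for 26 of the type I genes, against 12.3% of all tested genes, and FLOX replicate 5 for 7. In the gamma list CKO replicate 1 was not the only low library. Each of CKO replicate 1 and FLOX replicate 5 was the lowest of all 6 for 13 genes. FLOX replicate 5 was the lowest FLOX library for 20 of the 28, against 38.5% of all tested genes. Of the 41 type I genes, 8 were lower and 1 higher at an unadjusted p under 0.05. Across all tested genes these shares were 8.94% and 12.6%. For 8 of the 41 every CKO library was below every FLOX library, and for 1 above, against 11.4% and 15.5%. No gene of the type I list passed and its median difference was -0.05, or 0.02 without CKO replicate 1. Its most abundant genes, Ifitm2 and Ifitm3, which block virus entry, averaged 509 ± 47.4 against 625 ± 24.6 FPKM and 624 ± 82.7 against 571 ± 95.6 FPKM.

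Of the interferon gamma list Il15, a cytokine that sustains natural killer cells and memory T cells, fell from 8.58 ± 0.218 to 4.93 ± 0.481 FPKM (-0.69, SE 0.09, limma adjusted p = 0.047), and no other passed. Il15 was not lowest in CKO replicate 1, with CKO values of 4.96, 4.44 and 5.4 FPKM. Left-out fits gave -0.75 to -0.63 for it, and it did not pass without CKO replicate 2 or any of the FLOX libraries. The chemokine gene Cxcl9, which draws T cells and is a near-exclusive target of interferon gamma, measured 6.86, 42.84 and 47.38 FPKM in CKO and 32.28, 19.38 and 3.33 FPKM in FLOX libraries (0.84, SE 0.90). CKO replicate 1 and FLOX replicate 5 were its low libraries, as for Gbp2 and Ifng. Cxcl10 measured 7.95, 30.31 and 43.53 FPKM in CKO and 38.64, 16.52 and 32.87 FPKM in FLOX libraries (-0.30, SE 0.58). The antigen presentation genes B2m and Tapbp averaged 2138 ± 348 against 1677 ± 304 FPKM and 92.8 ± 10.7 against 85.2 ± 11.2 FPKM, neither past the test. The median of the gamma list rose from 0.07 to 0.32 without CKO replicate 1.

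Cell type markers differed between the groups and between libraries. Vamp7, the targeted gene, measured 19.71, 19.11 and 19.73 FPKM in CKO and 20.4, 21.51 and 20.77 FPKM in FLOX libraries (limma adjusted p = 0.475), a weak check of the labels because other skin cells express it. Summed skeletal muscle markers were 484.8 to 1330 FPKM in CKO and 159 to 374.5 FPKM in FLOX libraries, and keratinocyte markers 7163 to 9812 and 5616 to 6134 FPKM. For the low library, the T and natural killer cell markers summed to 91.5 FPKM in CKO replicate 1, against 94.1 and 107 FPKM in CKO replicates 2 and 5 and 93.3 to 118 FPKM in FLOX. CKO replicate 1 was the lowest CKO library for 8 of the 12 T and natural killer cell markers tested, against 29.5% of all tested genes, and the highest for 1. FLOX replicate 5 was the lowest FLOX library for 9 of these markers, against 38.5% of all tested genes. It was the lowest of all 6 libraries for 7 of them, and CKO replicate 1 for 4. Adipocyte markers were highest in CKO replicate 1 (789 FPKM, against 234 to 475.4 FPKM elsewhere), and its monocyte and macrophage sum was the highest of the CKO libraries. Siglech, a marker of plasmacytoid dendritic cells, the strongest makers of type I interferon, was 11.85 FPKM in CKO replicate 1 and 8.09 to 12.49 FPKM in the other libraries. The markers of these cells were mixed. Of the 5 tested, CKO replicate 1 was the highest CKO library for 2, Siglech among them, and the lowest for 2. No marker of these lists was at 0 in all libraries. The part of any cell type in the values of CKO replicate 1 was not tested.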

How the data were processed

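Skin RNA of 3 CKO and 3 FLOX libraries was enriched for messenger RNA with oligo(dT) and read as single ends of 50 bases, per the labels' protocols. The submitters' processing notes name HISAT. Its version and the counter, genome build and gene models behind the table were not given in the sources used here. The authors deposited 1 table of FPKM values, rounded to 2 decimals, with the unit taken from its column names. Depth is unknown, so no counting interval is given; library sums ran from 556412 to 594987 FPKM.

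A gene was tested if 3 or more libraries reached 1 FPKM, which kept 12994. Differences were fitted on log2(FPKM + 1), which understates the change of low genes, with limma 3.58.1 in R 4.3.3 (intensity trend, two-sided, threshold 0.05). The fit was tested on simulated data with independent noise in each gene and library. That test cannot judge deviations shared by many genes of a library, as seen here in CKO replicate 1. Members and gene lists were chosen with earlier results of these data known. Values in every library are given for the 2 members with the highest mean and the 2 with the smallest p of each role list. Named pathway genes are those past the test, the 2 with the highest mean of each list, and Ifnb1, Ifng, Ifnk, Ifnar1, Ifnar2, Ifngr1, Ifngr2, Cxcl9 and Cxcl10. A gene that the rule also names is not reported here. Ifi44, Ifnz and per-library values of Il15 were added after their values were seen, as were Siglech, Cd14, Socs1, S100a8, S100a9 and Mcpt8. So were Ccr9, Ly6d, Spib and Cox6a2. Motifs and 50-base stretches were searched in RefSeq (GRCm38.p6) promoters and GENCODE M21 transcripts.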

Additional observations from a re-analysis of the deposited data

How the results depend on the processing

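The fit was repeated with other pseudocounts (0.1 and 5), filters (none, and 5 FPKM), scalings (median-ratio and quantile), variance models (no trend, robust, array weights), a replicate block, and without each library. Counts of genes called lower and higher, 78 and 46, were 1 and 0 with no filter, 116 and 71 at 5 FPKM, 0 and 0 after quantile normalization, 17 and 15 without trend, 6 and 4 with robust fitting and 170 and 104 with array weights. After quantile normalization 1346 were lower and 1286 higher at an unadjusted p under 0.05. Left-out fits called 0 to 192 lower and 0 to 225 higher. The 1 member called became 0 with no filter, quantile normalization, no trend, robust fitting and the block, and 0 to 1 in left-out fits. The 2 other pathway genes called became 0 with no filter, quantile normalization and robust fitting, 1 without trend, and 0 to 5 in left-out fits. The block also called 2 pathway genes, but not the same ones. Neither Il10rb nor Il15 passed in it. The causes were not tested.

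The groups share only the replicate numbers 2 and 5, and nothing ties a number to a shared source. Deviations of same-numbered libraries correlated at 0.13 and -0.11 across genes, which are not independent. For pairs with different numbers the correlations ran from -0.39 to 0.23. With the replicate block, where replicates 1 and 3 add nothing to the difference and 1 residual degree of freedom remains, 102 genes were lower and 117 higher, and the member median was 0.04. In that block Ifit1 (0.30), Oas1a (0.22), Gbp5 (0.0065), Gbp7 (0.094), Eif2ak2 (0.041), Zbp1 (0.13), Stat2 (0.23), Ifih1 (0.21), Cmpk2 (0.035), Samhd1 (0.060) and Cxcl10 (0.027) turned positive, 9 of them members. With median-ratio scaling Gbp3 (-0.019) and Irf9 (-0.035) turned negative, and with array weights Gbp3 (-0.040), Oasl2 (-0.026) and Irf9 (-0.020).

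Over the left-out fits the differences of 16 members changed sign. They ran from -0.51 to 0.41 for Ifit1, -0.13 to 0.63 for Isg15, -0.24 to 0.15 for Oas1a, -0.094 to 0.31 for Oasl2, -0.12 to 0.76 for Gbp2, -0.14 to 0.33 for Gbp3, -0.31 to 0.039 for Eif2ak2, -0.53 to 0.053 for Zbp1, -0.49 to 0.00090 for Rtp4, -0.095 to 0.13 for Irf9, -0.16 to 0.14 for Stat2, -0.25 to 0.19 for Ifih1, -0.38 to 0.11 for Cmpk2, -0.036 to 0.34 for Ifi35, -0.073 to 0.35 for Xaf1 and -0.30 to 0.0030 for Parp14. Of the named pathway genes, the range was -0.15 to 0.021 for Ifngr1, -0.23 to 0.040 for Samhd1, -0.011 to 0.23 for Ifitm3, -0.78 to 0.38 for Cxcl10 and -0.028 to 1.69 for Cxcl9.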
